A study of Mus musculus with 32 samples.

Results

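Spinal cord RNA of 8 G93A mice was compared with that of 8 wild-type (WT) mice at 95 days of age, with untreated and OKN-007 mice pooled on each side. The mice were chosen by their labels alone, genotype and the earlier of the study's time points, and are 16 of the 32 mice sequenced. Each side held 4 untreated mice and 4 mice given OKN-007, a nitrone with antioxidant and anti-inflammatory activity, in their drinking water. Treatment entered the fit as a covariate, so each value below is the G93A difference averaged over both treatments. The labels give the age as 90 days and the study's methods as 95 days, and the latter is used here. The methods describe tissue taken at 95 days in a cohort at the higher of the study's doses, treated from before onset, for which only females were used. They do not name the cohort of the sequenced mice, and the labels give no dose or sex.

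G93A mice carry many copies of a human SOD1 gene with the G93A mutation, B6-Tg(SOD1-G93A)1Gur/J, on the C57BL/6J background, and the WT mice were littermates without it. The transgene is driven by the human promoter and is active in every tissue, so the model is not limited to motor neurons. Mutant SOD1 misfolds, motor neurons lose their connections with muscle and then die, and microglia and astrocytes around them take on reactive states. At about this age the first hindlimb tremor is seen in the line, so the comparison asks which transcripts already differ near onset. The other age of the study, 155 days, was sampled in other mice and is used here only to look up the same genes later in the disease.

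The gene counts of a mouse at 95 days summed to between 19701722 and 30093272 (median 25766951). Levels are given as CPM, a count divided by the normalised library size and scaled so that libraries compare, and 3 counts in the smallest library are 0.144 CPM. Intervals and such limits cover counting error only. The tissue was central nervous tissue by its markers. Across the 16 mice the median summed level of 14 neuronal genes was 5120 CPM in WT and 4854 CPM in G93A mice, and that of 11 myelin genes was 39686 and 37790 CPM. The table lists mouse genes alone, so the human transgene could not be used to check the genotype labels. Mouse Sod1 ranged from 282 to 354 CPM in WT (median 332) and from 296 to 404 CPM in G93A mice (median 327), with a log2 fold change of 0.03 and an adjusted p of 0.966. In bulk tissue, fewer cells of a type and less RNA per cell cannot be told apart.

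A pair of libraries stood apart. The mean log2(CPM + 1) over a list of Schwann cell and nerve root genes was 5.69 in WT untreated mouse 3 and 4.39 in G93A untreated mouse 10, against at most 2.72 in the other 14 mice. Peripheral nerve and meningeal markers were raised together in both. The counts of genes and list members without these mice are given after the lists.

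Few genes separated the genotypes at this age. Of 18899 genes tested, 8 passed an adjusted p of 0.05 (0.0423%), 6 higher in G93A mice (0.0317%) and 2 lower (0.0106%), by edgeR's quasi-likelihood test with Benjamini-Hochberg adjustment. The 6 that rose were Ccn5, Mmp12, Lgals3, Cd109, Thbs2 and Tnfrsf12a, which encode secreted matrix and lectin proteins and cell-surface proteins. The 2 that fell were Adgrf5, an adhesion receptor of endothelial cells, and the pseudogene Gm13340. At an adjusted p under 0.10 there were 26 genes (0.138%), 20 of them higher. At an unadjusted p under 0.05 there were 1279 (6.77%), where 945 would be expected by chance, with 723 higher (3.83%) and 556 lower (2.94%). The median log2 fold change over all genes tested was 0.0033. Lgals3, Ccn5 and Adgrf5 stayed called whichever of the 16 mice was left out. The other calls did not: Gm13340 held in 11 of the 16 fits without 1 mouse, Thbs2 in 6, Tnfrsf12a and Cd109 in 5 each and Mmp12 in 3. Leaving out WT mice 1, 3, 4, 6, 7 or 8 or G93A mice 10, 11, 13, 14, 15 or 16 ended 2 or more of these 5 calls, and leaving out WT mice 2 or 5 ended that of Mmp12, with adjusted p values up to 0.132 by edgeR's quasi-likelihood test and no change of direction.

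Ccn5, a matricellular protein of the CCN family that lacks the C-terminal domain of its relatives, was close to silent in WT cord. It had 0 to 4 counts in each WT mouse and 12 to 45 counts in each G93A mouse. This is 12 counts in all 8 WT mice and 195 in the G93A mice, a ratio of 15.7 (exact 95% interval 8.80 to 31.0, counting error only). In CPM the WT mice ranged from 0 to 0.148 (median 0.0619) and the G93A mice from 0.464 to 2.16 (median 0.664). The genotypes did not overlap, which was true of 0.0212% of genes tested in this direction. The filter on low counts asks for counts in only as many mice as 1 group holds. Ccn5, at 0 to 4 counts in each WT mouse, passed it only through the G93A mice. A gene so low in WT mice is tested only if G93A mice are higher, so its direction was not free to vary. The log2 fold change was 3.96 ± 0.50 (SE, n = 8 per genotype) with an adjusted p of 0.00185 by edgeR's quasi-likelihood test.

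Mmp12, the macrophage elastase that degrades elastin and other matrix proteins, showed the largest log2 fold change of the 8 called genes but also the widest scatter between G93A mice. Its WT mice held 0 to 4 counts, 9 in all, and its G93A mice 2 to 61, 222 in all, a ratio of 23.9 (12.3 to 52.9). In CPM, WT mice ranged from 0 to 0.160 (median 0.0187) and G93A mice from 0.0688 to 2.62 (median 0.933). G93A untreated mouse 12 and G93A OKN-007 mouse 14 held 2 counts each, inside the WT range, and the other 6 G93A mice lay above every WT mouse. The log2 fold change was 4.53 ± 0.81 (SE), with an adjusted p of 0.0466. Like Ccn5, Mmp12 passed the filter on low counts only through the G93A mice.

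Lgals3 encodes galectin-3, a sugar-binding lectin that microglia and macrophages make when they take up debris. Its level ran from 1.84 to 5.79 CPM in WT mice (median 3.45) and from 4.75 to 22.9 CPM in G93A mice (median 12.8). All G93A mice but untreated mouse 12 lay above the highest WT mouse. The log2 fold change was 1.95 ± 0.26 (SE), with an adjusted p of 0.00314.

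For the genes that rose furthest and have a start site in the RefSeq promoter table (build GRCm38.p6), the 250 bases before the start are shown, because Mmp12 and Lgals3 led the rise among genes with a window. Mmp12 has 2 start sites in the table. The second is printed, and the window of the first (chr9:7344147-7344396) held 0 matches to the motif below. Capitals mark the AP-1 motif TGANTCA, which Jun, Fos and Atf3 family proteins bind, and which was searched on both strands.
Mmp12, plus strand, chr9:7347124-7347373: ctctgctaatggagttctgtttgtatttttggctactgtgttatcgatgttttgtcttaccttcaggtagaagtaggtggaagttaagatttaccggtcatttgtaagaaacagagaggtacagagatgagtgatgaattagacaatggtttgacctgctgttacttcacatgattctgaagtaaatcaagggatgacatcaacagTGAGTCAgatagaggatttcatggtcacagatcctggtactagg
Lgals3, plus strand, chr14:47373610-47373859: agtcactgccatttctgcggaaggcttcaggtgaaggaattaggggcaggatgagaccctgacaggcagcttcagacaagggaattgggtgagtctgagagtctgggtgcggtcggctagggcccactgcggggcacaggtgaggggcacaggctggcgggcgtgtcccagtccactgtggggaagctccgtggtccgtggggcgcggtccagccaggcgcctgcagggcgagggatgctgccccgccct
The motif stands 44 bases before this Mmp12 start. Of the 8 called genes, 5 had a promoter window (Mmp12, Lgals3, Thbs2, Tnfrsf12a and Adgrf5) and only this Mmp12 window held a match, while 2217 of 32851 windows of this length in the table did (6.75%). Ccn5, Cd109 and Gm13340 had no window. A TATA box, TATAAA, was searched as well. Among the windows of the called genes only that of Thbs2 held it, while 4063 of the 32851 windows did (12.4%).

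Smaller rises were measured in 3 cell-surface or matrix genes. Tnfrsf12a, the receptor for the cytokine TWEAK, is induced by injury in many tissues. It ranged from 8.58 to 13.96 CPM in WT mice (median 11.2) and from 13.4 to 18.9 CPM in G93A mice (median 15.2), a log2 fold change of 0.48 ± 0.08 (SE) with an adjusted p of 0.0413. Only G93A OKN-007 mouse 15 lay below the highest WT mouse.

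Thbs2, a thrombospondin of the matrix that astrocytes release and that takes part in synapse formation, ranged from 16.2 to 22.7 CPM in WT mice (median 18.5) and from 20.8 to 31.6 CPM in G93A mice (median 27.0). Its log2 fold change was 0.52 ± 0.09 (SE), with an adjusted p of 0.0379. Cd109, a membrane-anchored binding partner of TGF-beta, ranged from 3.13 to 7.10 CPM in WT mice (median 4.03) and from 6.05 to 10.3 CPM in G93A mice (median 8.09). Its log2 fold change was 0.83 ± 0.15 (SE), with an adjusted p of 0.0450. In both genes 6 of 8 G93A mice lay above the highest WT mouse.

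Adgrf5 carried the smallest p of all genes. It ranged from 44.0 to 54.7 CPM in WT mice (median 50.2) and from 33.8 to 44.4 CPM in G93A mice (median 37.1), and 7 of 8 G93A mice lay below the lowest WT mouse. The log2 fold change was -0.40 ± 0.05 (SE), a level 24.4% lower, with an adjusted p of 0.00185. Adgrf5, Thbs2 and Tnfrsf12a all lie on chromosome 17 in GENCODE M21, which holds 4.66% of the genes tested.

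Gm13340, an unprocessed pseudogene on chromosome 2, ranged from 90.2 to 123 CPM in WT mice and from 65.8 to 81.3 CPM in G93A mice without overlap, which was true of 0.0317% of genes in this direction. Its log2 fold change was -0.47 ± 0.08 (SE), with an adjusted p of 0.0243. The value is uncertain, because 27.5% of the 50-base stretches of its transcript are identical to the mitochondrial gene mt-Co1, and reads from one can be counted on the other.

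**Figure D1:**
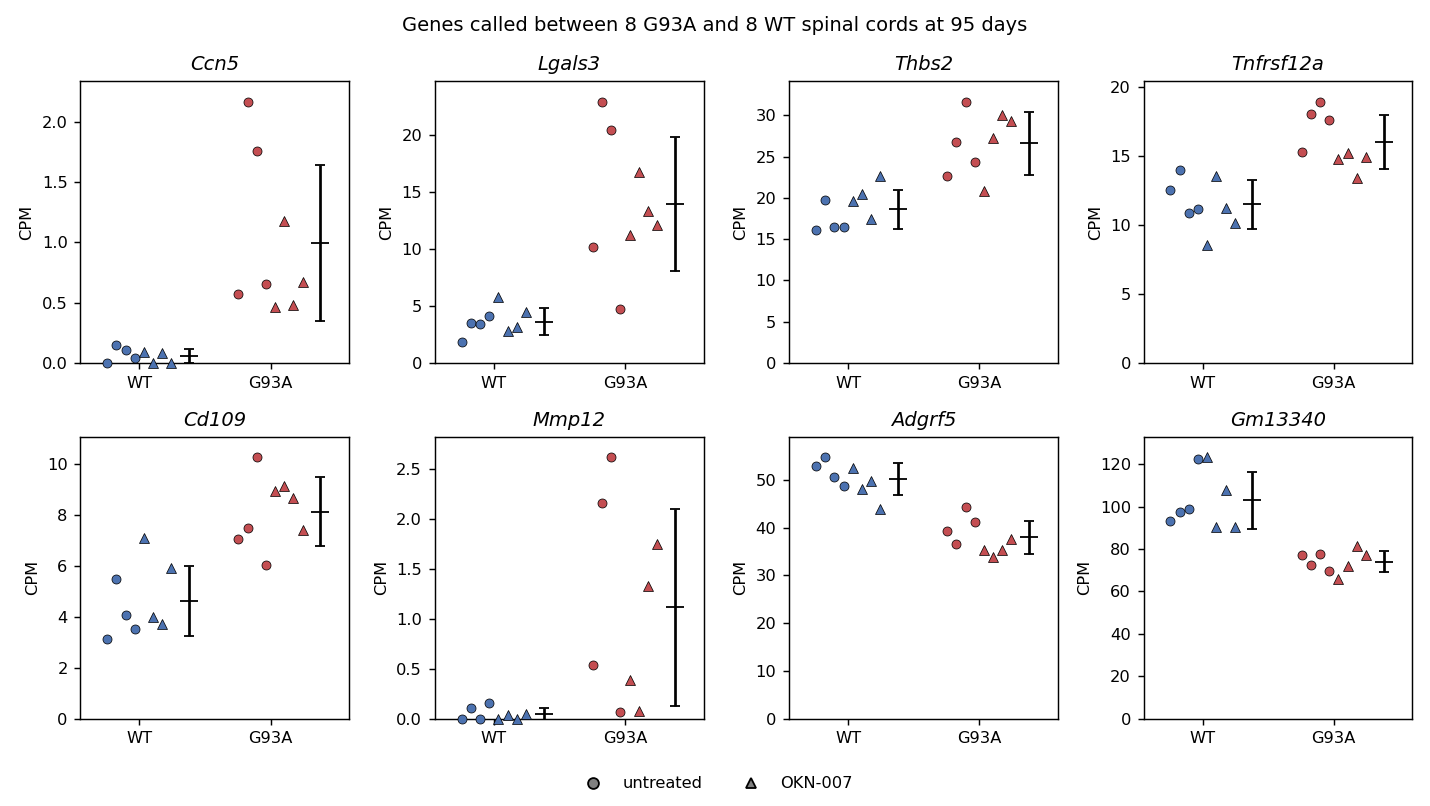
Each panel plots the CPM of 1 gene called at 95 days in every mouse (circles untreated, triangles OKN-007; blue WT, red G93A), with the mean and SD of the 8 mice beside them. Ccn5 and Gm13340 do not overlap between genotypes, and Mmp12 and Lgals3 spread widely among G93A mice.

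The G93A mice differed among themselves in the same genes. G93A untreated mouse 11 was above every WT mouse in 6 of the 6 genes called higher and was highest or next to highest of the G93A mice in all 6. G93A untreated mouse 10 and OKN-007 mouse 16 were also above every WT mouse in all 6. G93A untreated mouse 12 was above every WT mouse in only 3 of them, and its Lgals3 (4.75 CPM) and Mmp12 (0.0688 CPM) were the lowest of the 8. Its Gfap, 3330 CPM, was also the lowest of the G93A mice. With this mouse left out, 48 genes passed, 41 of them higher, and these included all 8.

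The treatment arms showed the same directions in all 8 called genes, and in all 26 at an adjusted p under 0.10. These genes were chosen in the same mice by a fit that averages the arms. That choice favours shared directions and a small interaction, so neither is independent evidence that the arms are alike. Ccn5 had a log2 fold change of 4.00 ± 0.68 (SE, n = 4 per genotype) in untreated and 3.89 ± 0.79 in OKN-007 mice. Lgals3 had 2.18 ± 0.38 and 1.72 ± 0.37, Mmp12 4.23 ± 1.07 and 5.12 ± 1.33, and Adgrf5 -0.36 ± 0.07 and -0.45 ± 0.07. The lowest unadjusted p of the genotype by treatment interaction among the 8 was 0.297. Over all genes the interaction gave 0 calls (0%) by edgeR's quasi-likelihood test and 531 genes (2.81%) at an unadjusted p under 0.05, fewer than the 945 expected by chance, and DESeq2 also gave 0. With 4 mice against 4, the G93A difference gave 0 calls in untreated mice (1126 genes, 5.96%, at an unadjusted p under 0.05, and 16 called by DESeq2) and 0 in OKN-007 mice (747 genes, 3.95%, and 3 called by DESeq2), so the calls above rest on pooling the arms.

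The next genes by p did not pass. Met, the receptor for hepatocyte growth factor, ranged from 4.79 to 9.51 CPM in WT (median 6.03) and from 7.396 to 13.3 CPM in G93A mice (median 10.2), a log2 fold change of 0.63 ± 0.12 (SE) with an adjusted p of 0.0531. Robo4, a guidance receptor of endothelium, ranged from 4.52 to 7.35 CPM in WT (median 6.33) and from 3.35 to 5.26 CPM in G93A mice (median 3.87), a log2 fold change of -0.60 ± 0.11 with an adjusted p of 0.0531. Both genotypes overlapped in both genes, with 6 of 8 G93A mice outside the WT range.

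Differences in microglial genes were mostly small. The list counts below stand beside 3.83% of all genes higher and 2.94% lower at an unadjusted p under 0.05. Of 24 genes of disease-associated microglia, the state that microglia enter around dying neurons, 1 was called (Lgals3) and 18 were higher at an unadjusted p under 0.05, with 0 lower and a median log2 fold change of 0.44. DESeq2 called 7 of the 24, with 73 calls (0.386%) over all genes. Gpnmb, a lysosomal glycoprotein of phagocytes, ranged from 1.18 to 2.41 CPM in WT (median 1.48) and from 1.995 to 8.20 CPM in G93A mice (median 4.09), with a log2 fold change of 1.36 ± 0.26 (SE) and an adjusted p of 0.0628. Cst7, a cysteine protease inhibitor of this state, had 29 counts in the WT mice and 167 in the G93A mice, a ratio of 5.57 (3.74 to 8.58), a log2 fold change of 2.51 ± 0.53 and an adjusted p of 0.0962. Being near 0 in WT mice, Cst7 could enter the test through the G93A mice, which can raise the list's count and median. Clec7a, a receptor for fungal glucans, ranged from 0.935 to 2.70 CPM in WT (median 1.71) and from 1.51 to 10.3 CPM in G93A mice (median 5.61), with a log2 fold change of 1.81 ± 0.39 and an adjusted p of 0.109.

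Spp1, which encodes osteopontin and is also made by spinal motor neurons, had medians of 126 CPM in WT and 131 CPM in G93A mice, with a log2 fold change of 0.06 ± 0.10 (SE). Apoe, made mostly by astrocytes, had medians of 3624 and 4028 CPM, with a log2 fold change of 0.18 ± 0.07 and an adjusted p of 0.646. Scored as the mean log2(CPM + 1) over the list, 7 of 8 G93A mice lay above the highest WT mouse (4.79), and G93A untreated mouse 12, at 4.66, lay within the WT range.

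Of 12 homeostatic microglial genes, which mark resting microglia, 5 were higher at an unadjusted p under 0.05 (3.83% of all genes) and 0 lower (2.94%). Their median was 0.21. Fcrls ranged from 7.99 to 11.6 CPM in WT (median 9.63) and from 10.6 to 22.8 CPM in G93A mice (median 15.4), a log2 fold change of 0.69 ± 0.15 (SE) and an adjusted p of 0.130. P2ry12, the ADP receptor that marks resting microglia, had a log2 fold change of 0.14 ± 0.07 and Tmem119 of 0.19. Aif1, which encodes the microglial stain Iba1, ranged from 5.66 to 9.39 CPM in WT (median 6.90) and from 7.22 to 12.3 CPM in G93A mice (median 9.43), with a log2 fold change of 0.45 ± 0.13 and an adjusted p of 0.324.

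Of 11 complement genes tested, 9 were higher at an unadjusted p under 0.05 (3.83% of all genes) and 0 lower (2.94%), with a median of 0.48. C1qb, a chain of the recognition protein C1q, ranged from 33.9 to 45.5 CPM in WT (median 39.1) and from 40.2 to 86.9 CPM in G93A mice (median 50.7). C4b, the next component of the cascade, ranged from 87.2 to 146 CPM in WT (median 103) and from 98.4 to 257 CPM in G93A mice (median 157). Their adjusted p values were 0.306 and 0.206, and 5 of 8 G93A mice lay above the highest WT mouse in each.

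Of 18 chemokine and cytokine genes 12 were tested, and Ccl2, Ccl5, Ccl7, Cxcl13, Il1b and Tnf had too few counts. Of the 12, 7 were higher at an unadjusted p under 0.05 (3.83% of all genes) and 0 lower (2.94%), with the highest median of any list tested, 0.90. Of these 7, Cxcl16, a membrane-bound chemokine, had the highest medians, 2.75 CPM in WT and 4.05 CPM in G93A mice. The filter asks for counts in only as many mice as 1 group holds, so a gene near 0 in WT can enter through the G93A mice. That can raise the list's count and median. Ccl3, a chemokine of activated microglia, had 53 counts in WT and 239 in G93A mice, a ratio of 4.36 (3.23 to 5.99), with an adjusted p of 0.109. Cxcl10, an interferon-induced chemokine, had 52 and 175 counts, a ratio of 3.26 (2.38 to 4.53), with an adjusted p of 0.0962. Of 19 lysosomal genes tested, 13 were higher at an unadjusted p under 0.05 and 0 lower, at a median of 0.22. Ctsl and Ctss, which encode cathepsins, had log2 fold changes of 0.28 ± 0.06 and 0.43 ± 0.10 (SE).

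No gene of the astrocyte lists was called by edgeR's quasi-likelihood test. Of 13 reactive astrocyte genes tested, 7 were higher at an unadjusted p under 0.05 (3.83% of all genes) and 0 lower (2.94%), with a median of 0.32. Of 8 astrocyte identity genes 4 were higher, with a median of 0.11. Serpina3n, a serine protease inhibitor of reactive astrocytes, ranged from 30.2 to 54.5 CPM in WT (median 40.2) and from 49.7 to 178 CPM in G93A mice (median 76.2), a log2 fold change of 1.15 ± 0.22 (SE) with an adjusted p of 0.0622. Vim, the intermediate filament vimentin, ranged from 164 to 269 CPM in WT (median 183) and from 166 to 475 CPM in G93A mice (median 320), a log2 fold change of 0.82 ± 0.16 with an adjusted p of 0.0799. In both genes 7 of 8 G93A mice lay above the highest WT mouse.

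Gfap, the astrocyte filament, ranged from 3259 to 4984 CPM in WT (median 3612) and from 3330 to 5424 CPM in G93A mice (median 4917), with 4 of 8 G93A mice above the highest WT mouse. Its log2 fold change was 0.30 ± 0.09 (SE), with an adjusted p of 0.425. The lists of microglial, complement, chemokine, lysosome and astrocyte genes share members, such as Cd68, Cxcl10 and Timp1, so their counts are not independent of each other.

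**Figure D2:**
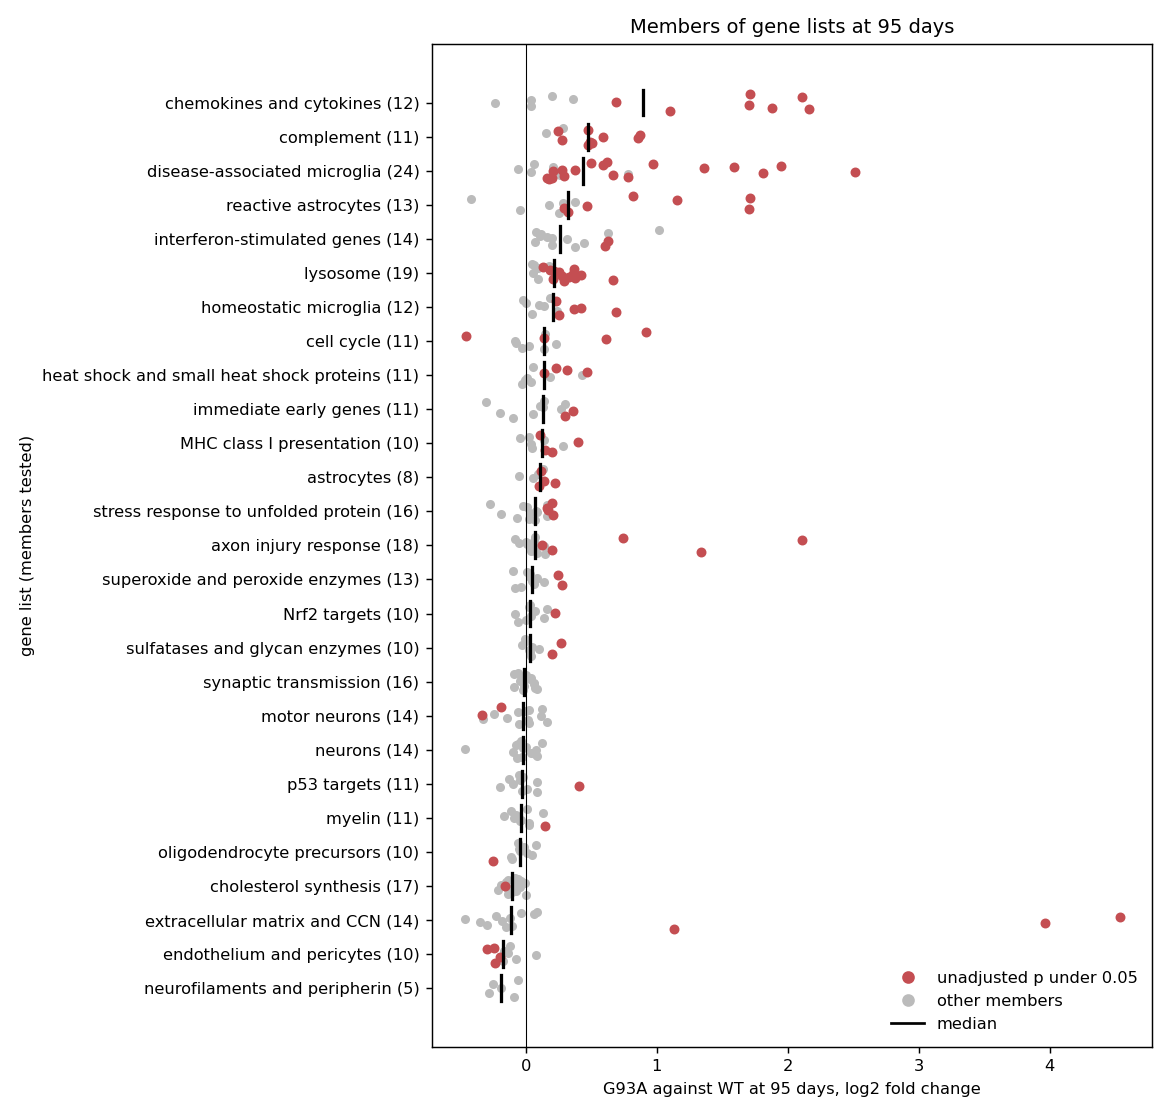
Each point is the log2 fold change of 1 tested member of a list at 95 days, red at an unadjusted p under 0.05, with the list's median as a bar and the number tested beside its name. The medians of the immune lists lie between 0.12 and 0.90, those of the neuron and motor neuron lists at -0.02, and that of the neurofilament list at -0.19.

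Neuronal genes showed little difference at this age. Of 14 motor neuron genes 0 were higher (3.83% of all genes) and 2 lower (2.94%) at an unadjusted p under 0.05, with a median of -0.02. These were Mmp9, a protease of the fast motor neurons that are most vulnerable in this line, with a log2 fold change of -0.33 ± 0.13 (SE) and an adjusted p of 0.596, and Tns1, a focal adhesion protein, with -0.19 ± 0.07 and 0.591. Chat, the enzyme that makes acetylcholine, ranged from 31.1 to 45.8 CPM in WT (median 36.5) and from 29.9 to 54.0 CPM in G93A mice (median 36.0), with a log2 fold change of 0.01 ± 0.11, and its sign turned under other settings. Chodl, a marker of fast motor neurons, had a log2 fold change of -0.33 ± 0.18 and an adjusted p of 0.788.

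Of 14 pan-neuronal genes 0 passed an unadjusted p of 0.05 in either direction, with a median of -0.02. Rbfox3, which encodes the neuronal stain NeuN, ranged from 209 to 260 CPM in WT (median 229) and from 203 to 238 CPM in G93A mice (median 216), with a log2 fold change of -0.09 ± 0.06 (SE) and an adjusted p of 0.815. The 5 genes of neurofilaments and peripherin, the cytoskeleton of large axons, all had log2 fold changes below 0, from -0.28 (Nefh) to -0.06 (Prph), with 0 at an unadjusted p under 0.05. Of 16 synaptic genes 0 passed in either direction.

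Genes that neurons switch on after axon injury lay mostly above 0, a few of them well above it. Atf3, a transcription factor absent from intact motor neurons, ranged from 0.935 to 2.74 CPM in WT (median 1.503) and from 2.08 to 8.37 CPM in G93A mice (median 3.61), with a log2 fold change of 1.34 ± 0.26 (SE) and an adjusted p of 0.0628. Sprr1a, a small proline-rich protein of regrowing axons, had 1.42 CPM at the G93A median and 0.278 at the WT median, with a log2 fold change of 2.11 ± 0.56 and an adjusted p of 0.267. Gap43, a growth cone protein, had 0.08. Of the 18 genes of the list, 15 had log2 fold changes above 0, against 51.4% of all genes tested, with a median of 0.07. At an unadjusted p under 0.05, 5 were higher (3.83% of all genes) and 0 lower (2.94%). By the mean log2 level of the list, 7 of 8 G93A mice lay above the highest WT mouse.

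Vascular genes lay on the lower side. Beside Adgrf5, which was in no list, 4 of 10 genes of endothelium and pericytes were lower at an unadjusted p under 0.05 and 0 higher. Their median was -0.17, and over all genes 2.94% were lower and 3.83% higher. None of the 10 was called by edgeR's quasi-likelihood test and 1 was called lower by DESeq2. Pecam1, an adhesion molecule of endothelial junctions, ranged from 17.8 to 23.1 CPM in WT (median 20.1) and from 14.3 to 19.6 CPM in G93A mice (median 15.6), a log2 fold change of -0.30 ± 0.06 (SE) with an adjusted p of 0.0785. Cldn5, the tight junction protein of the blood-brain barrier, had -0.07. The list's mean log2 level overlapped between genotypes, from 4.35 to 4.87 in WT and from 4.22 to 4.69 in G93A mice.

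Of 17 cholesterol synthesis genes, 16 had log2 fold changes below 0, where 51.4% of all genes tested lay above 0, and the median was -0.11. At an unadjusted p under 0.05, 1 was lower (Insig1, -0.16 ± 0.07 SE). That share is near the 2.94% of all genes, and the number was 0 without WT untreated mouse 3 and G93A untreated mouse 10. With a caudal Hox score as a covariate it was 6, but the share of all genes lower in that fit is not given here. Of 14 matrix and CCN genes tested, Ccn5 and Mmp12 were called, against 0.0317% of all genes called higher. Only 5 of the 14 had log2 fold changes above 0 (51.4% of all genes tested), with a median of -0.11. At an unadjusted p under 0.05, 3 were higher (3.83% of all genes) and 0 lower (2.94%). Ccn1, an immediate early matricellular protein, ranged from 2.58 to 5.10 CPM in WT (median 3.22) and from 3.54 to 11.3 CPM in G93A mice (median 8.30), with a log2 fold change of 1.13 ± 0.22 and an adjusted p of 0.0628. The collagen genes Col1a1 and Col3a1 had -0.35 and -0.46, and both were highest in WT untreated mouse 3, at 20.2 and 22.4 CPM, the library with the peripheral nerve markers.

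Of 14 interferon-stimulated genes all had log2 fold changes above 0, against 51.4% of all genes tested, with a median of 0.26. At an unadjusted p under 0.05, 2 were higher, against 3.83% of all genes. By the mean log2 level of the list, 3 of 8 G93A mice lay above the highest WT mouse. Its summed level ranged from 84.1 to 209 CPM in G93A mice (median 108) and from 82.1 to 108 CPM in WT mice. Ifit3 ranged from 15.2 to 26.5 CPM in WT (median 17.8) and from 15.9 to 72.6 CPM in G93A mice (median 25.6). Its log2 fold change was 0.63 ± 0.24 (SE), with an adjusted p of 0.583. By arm it was 0.20 ± 0.31 in untreated and 1.05 ± 0.31 in OKN-007 mice. Hspa5 and Pdia4, chaperones of the endoplasmic reticulum, had log2 fold changes of 0.17 and 0.16. Of the 16 genes of that stress list, 4 were higher at an unadjusted p under 0.05 (3.83% of all genes) and 0 lower (2.94%). Gpx1, a peroxide-reducing enzyme, had 0.28 ± 0.06 (SE) with an adjusted p of 0.148.

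Markers of other cell types did not separate the genotypes at the level of lists. The T and NK cell list summed to 2.38 to 4.11 CPM in WT and 2.28 to 3.42 CPM in G93A mice. Of its 10 genes only 1, Trac, had enough counts to be tested. Trac made up most of the sum, with means of 2.20 CPM in WT and 1.98 CPM in G93A mice, so the list says little about these cells. Border macrophage genes, which could also carry Lgals3 and Mmp12, summed to 2.94 to 8.59 CPM and 3.15 to 9.38 CPM. The Schwann cell list had 0 members at an unadjusted p under 0.05 in either direction, with a median log2 fold change of -0.33. Without WT untreated mouse 3 and G93A untreated mouse 10 that median was -0.0048 over 9 members tested, and 1 member was higher at an unadjusted p under 0.05.

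Without these mice 4 genes were called, Adgrf5, Ccn5, Lgals3 and Nes, an intermediate filament of progenitors and reactive astrocytes, and 1164 genes (6.12%) passed an unadjusted p of 0.05. Among the lists, the number higher at that p was 18 for disease-associated microglia and 9 for complement, with medians of 0.36 and 0.38, and 7 for chemokines and 13 for lysosome. It was 7 for homeostatic microglia, 8 for reactive astrocytes, 3 for astrocytes, 6 for axon injury, 3 for interferon-stimulated genes and 3 for the endoplasmic reticulum stress list. The number lower was 1 for motor neurons and 4 for endothelium and pericytes, and of the matrix genes only Ccn5 was called.

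DESeq2 called more list members than edgeR's quasi-likelihood test, and also more genes over all, 73 (0.386%) against 8 (0.0423%). It called 4 lysosomal, 4 reactive astrocyte, 3 homeostatic microglial, 3 chemokine, 3 matrix, 2 axon injury genes and 1 complement gene higher, and 0 neuronal, motor neuron, neurofilament, synaptic or interferon-stimulated genes.

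The level along the cord at which tissue was taken is not given in the sources used here, and Hox genes, whose expression marks that level, varied between mice. The mean log2 level of 10 caudal Hox genes ran from 2.87 to 4.31 in WT and from 2.28 to 4.11 in G93A mice, with G93A OKN-007 mice 13 and 14 the lowest. With this score as a covariate 25 genes passed (0.132%), 21 of them higher, and these included all 8. Among the 17 that passed only with it were Cst7, Gpnmb, Serpina3n, Ccl3 and Clec7a.

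**Figure D3:**
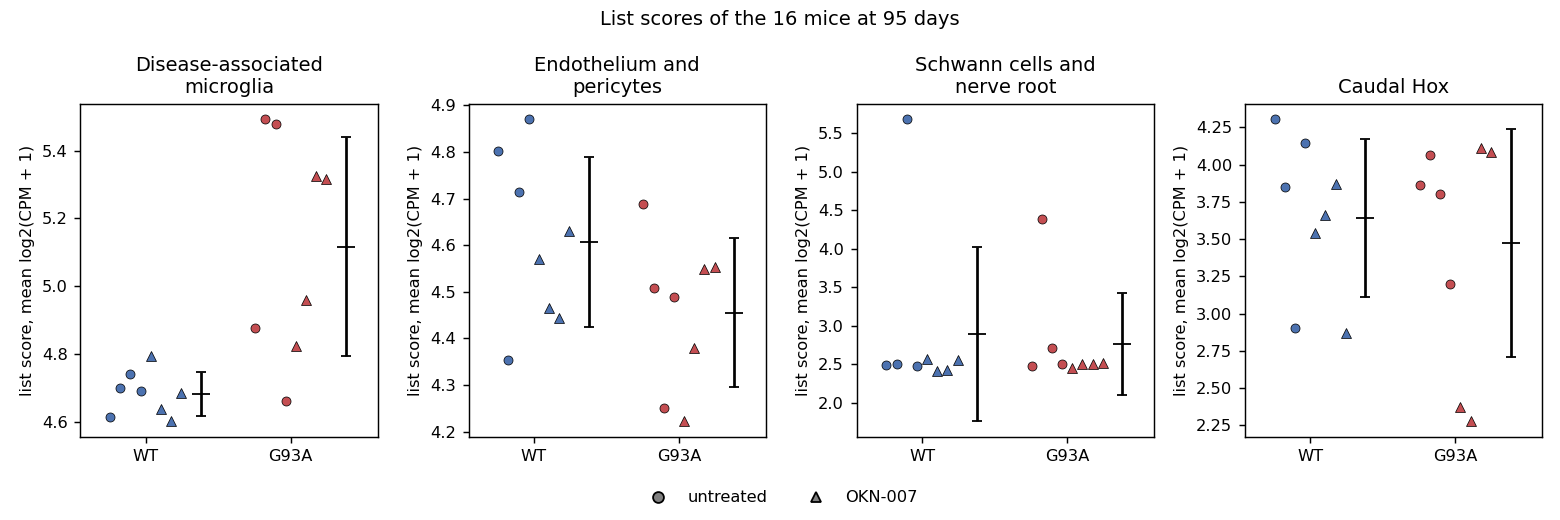
Each panel plots the mean log2(CPM + 1) over 1 list in the 16 mice at 95 days (circles untreated, triangles OKN-007; blue WT, red G93A), with the mean and SD of 8 mice. The disease-associated microglial score is above the highest WT mouse in 7 of 8 G93A mice, WT untreated mouse 3 and G93A untreated mouse 10 stand apart in Schwann cell genes, and the endothelial and caudal Hox scores overlap.

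The same genes were then looked up at 155 days, in 8 other G93A and 8 other WT mice, where 55.3% of 18675 genes tested passed an adjusted p of 0.05, 29.2% higher and 26.1% lower. All 6 genes that rose at 95 days rose at 155 days, and their median log2 fold change went from 1.39 to 4.84. Ccn5 reached a median of 19.7 CPM in G93A mice against 0.0755 in WT, Mmp12 17.9 against 0.0522 and Lgals3 80.9 against 1.73. None of the 6 overlapped between the genotypes at this age, as was true of 13.6% of genes in the higher direction and 10.1% in the lower. Of the 20 higher at an adjusted p under 0.10, 19 rose at 155 days.

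Of the 701 genes that were higher at an unadjusted p under 0.05 at 95 days and were tested at 155 days, 489 (69.8%) rose there, against 28.6% of the genes tested at both ages. Of the 543 that were lower, 193 (35.5%) fell, against 26.6%. Lists that were higher at the earlier age were called widely later: all 24 disease-associated microglial genes, all 11 complement genes and all 20 lysosomal genes rose at 155 days. Wide calling was not particular to such lists. At 155 days 11 of 12 targets of p53 and 9 of 10 sulfatase and glycan enzyme genes rose. Their median log2 fold changes at 95 days were -0.03 and 0.04. All 14 pan-neuronal genes and 12 of 14 motor neuron genes, which differed little at 95 days, fell. The mean log2 level of the caudal Hox genes did not overlap at 155 days, from 4.02 to 4.71 in WT and from 2.06 to 3.85 in G93A mice. Of these 10 genes 9 fell. Differences of genotype and of the level of cord taken therefore cannot be told apart in this lookup.

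The rise was larger at 155 than at 95 days, by the test of the difference in a fit of all 32 mice (37.9% of genes called, 19.9% with the larger value at 155 days), for Lgals3 (difference in log2 fold change 3.55 ± 0.34 SE, adjusted p 5.1e-10), Cd109 (3.31 ± 0.27, 1.0e-11), Thbs2 (1.86 ± 0.17, 1.7e-10), Tnfrsf12a (1.30 ± 0.15, 2.4e-08) and Ccn5 (3.56 ± 1.14, 0.0127). For Mmp12 the difference of 3.69 ± 1.52 missed the threshold (adjusted p 0.0549).

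Adgrf5 behaved otherwise. It fell at 155 days as well, from a median of 45.4 CPM in WT to 36.5 CPM in G93A mice, with a log2 fold change of -0.28 ± 0.07 (SE) and an adjusted p of 0.00101, and the difference between the ages was 0.10 ± 0.08 with an adjusted p of 0.392. Pecam1 had log2 fold changes of -0.30 at 95 and -0.28 at 155 days. Other vascular genes did not stay alike: Flt1, of the endothelium list, had -0.19 and 0.22, and Robo4 had -0.60 and -0.18. Of the 10 endothelium and pericyte genes, 3 were called higher and 5 lower at 155 days, against 29.2% and 26.1% of all genes. Gm13340 was called at 95 days only, with a log2 fold change of -0.12 ± 0.08 and an adjusted p of 0.201 at 155 days, and the ages differed by 0.33 ± 0.11 (adjusted p 0.0221). Its level also differed between the ages in WT mice, with medians of 98.1 CPM at 95 and 64.1 CPM at 155 days.

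**Figure D4:**
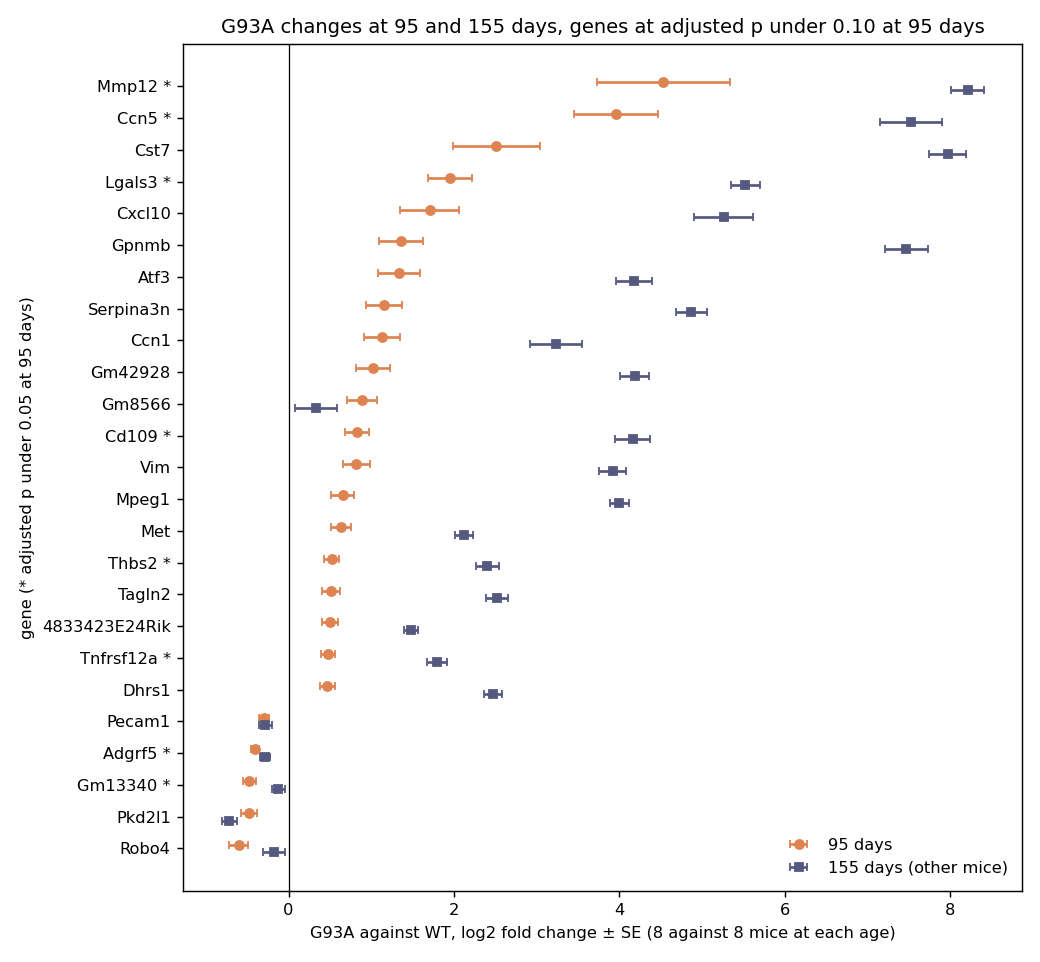
Points are G93A against WT log2 fold changes with their SE for 25 of the 26 genes at an adjusted p under 0.10 at 95 days, at 95 days (circles) and at 155 days in other mice (squares); Sult5a1, with an SE above 1.5 at both ages, is left out. Most genes on the higher side move further right at 155 days, while Adgrf5 and Pecam1 stay at about -0.3 and Robo4 moves from -0.60 to -0.18.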

How the data were processed

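The authors isolated RNA from 25 mg of spinal cord per mouse, made stranded mRNA libraries (TruSeq) and deposited raw read counts per gene, which are not normalised. The study's methods name Trimmomatic, STAR, HTSeq and GENCODE M10 (GRCm38), while the labels' processing notes name STAR, featureCounts, GRCm39 and hg38. The table holds 42524 gene IDs, of which 1306 are numbered above every ID of GENCODE M21, so M10 was not the annotation of this table and no gene coordinates are given. Symbols, chromosomes and transcript types come from GENCODE M21 (41203 IDs, 96.9%), and promoters, with their coordinates, from RefSeq.

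Counts were fitted with edgeR 4.0.16 in R 4.3.3 (filterByExpr, TMM, glmQLFit and glmQLFTest, two-sided) with genotype and treatment as terms, and a call is a Benjamini-Hochberg adjusted p under 0.05 over all genes tested. A fit with the 4 groups gave the values within arms and the interaction, and the 32 mice fitted together, with terms for genotype, treatment, age and their products with age, gave the difference between ages. SEs come from the quasi-likelihood F statistic. CPM are relative to TMM-scaled library sizes, and list scores are means of log2(CPM + 1). Ratios of summed counts have exact binomial intervals. The scripts were tested on simulated data.

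Genes named are all called genes, the 10 with the smallest p, Sod1, Gfap, Aif1, Rbfox3, Ccn5, Chat, Cst7, Atf3, and up to 4 members of each list by p. Others (Nes, Spp1, Apoe, P2ry12, Tmem119, Gap43, Cldn5, Sult5a1, Pkd2l1, Mpeg1 and Dhrs1) were picked with their values known. The comparison and the gene lists were chosen with earlier results of these data known. Libraries of one group all differed by more than sampling noise (chi-square per gene at least 6.05). The labels say that mice of a group are separate samples and name no batch. The alternatives tried were the likelihood ratio test of edgeR, DESeq2 1.42.0, limma 3.58.1 (voom with sample weights), RLE factors, other filters, other covariates, 1 surrogate variable (sva 3.50.0), all 32 mice in one fit, other thresholds and leaving out each mouse. Leaving out the 2 mice with the most Schwann cell RNA was added after seeing the data.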

Additional observations from a re-analysis of the deposited data

Results flagged for a closer look

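In groups of 4 mice, 7 of 84 groups tested had a mouse far from the other 3, where chance alone flags about 1 in 20 groups, or 4.2 here. WT untreated mouse 3 had a Schwann cell list score of 5.69 and a meningeal list score of 3.60, and G93A untreated mouse 10 had 4.39 and 2.97. WT OKN-007 mouse 6 had a liver list score of 2.84, against at most 0.274 in its group, and a blood list score of 3.93. Thbs2 in WT untreated mouse 2 was 19.7 CPM, against at most 16.5 CPM in the other 3 mice of its group. The part of these mice in the calls was not tested beyond leaving each of them out.

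Of the 8 called genes, 6 had a G93A change at 155 days unlike that at 95 days by edgeR's quasi-likelihood test of the difference, with log2 differences of 3.56 for Ccn5, 3.55 for Lgals3, 3.31 for Cd109, 1.86 for Thbs2, 1.30 for Tnfrsf12a and 0.33 for Gm13340.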

How the results depend on the processing

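Against 8 genes called between G93A and WT mice at 95 days, 73 were called by DESeq2, 68 by the likelihood ratio test, 14 by limma-voom with sample weights, 62 with no filter on low counts, 5 with at least 10 counts in every mouse, 5 with no treatment covariate, 5 from the fit of 4 groups, 25 with the caudal Hox score, 42 with 1 surrogate variable, 24 with all 32 mice in one fit, 26 at an adjusted p under 0.10, 3 at a log2 fold change of at least 1, and 4 without the 2 mice with Schwann cell RNA. With RLE factors it stayed at 8, and without those 2 mice but with the Hox score it was 9. Leaving out 1 mouse gave 3 (WT OKN-007 mouse 7, G93A untreated mouse 10 or G93A OKN-007 mouse 16) to 48 (G93A untreated mouse 12), and 15 without G93A untreated mouse 9. Leaving out any other mouse gave 4 to 10. The cause of these shifts was not tested. Lgals3 was called in each of the 30 settings that gave it a value, Ccn5 in each of its 29 and Adgrf5 in 29 of 30, the exception being the fold limit. Gm13340 was called in 23 of 30, Thbs2 in 17, Tnfrsf12a in 14, Cd109 in 13 and Mmp12 in 12 of 29, with the same direction throughout.

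In untreated mice alone DESeq2 called 16 genes and no filter on low counts gave 39, and in OKN-007 mice 3 and 24. The interaction gave 3 with no filter and 0 with DESeq2. Without 1 mouse the counts were 0 to 4 in untreated mice, 0 in OKN-007 mice and 0 for the interaction. At 155 days leaving out 1 mouse gave 9689 to 10510 genes. The log2 fold change of Chat turned to -0.0089 with sample weights, -0.0081 with 1 surrogate variable and -0.0162 with the Hox score, and ran from -0.0823 to 0.0619 with 1 mouse left out, below 0 without any of 5 mice. That of Sod1 turned to -0.0315 without the 2 mice with Schwann cell RNA, and ran from -0.0156 (without G93A untreated mouse 10) to 0.054 with 1 mouse left out. No paired analysis was possible because the replicate numbers of the WT (1 to 8) and G93A mice (9 to 16) do not overlap. With 8 mice a side the median SE of a log2 fold change was 0.09, and differences several times that size, such as 0.28 for Gpx1, did not pass.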

Other observations

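Sult5a1, a sulfotransferase gene on chromosome 8, was at 84.1, 118 and 98.8 CPM in WT untreated mice 2 and 4 and WT OKN-007 mouse 8, at most 0.442 CPM in the other 5 WT mice and at most 0.289 CPM in the 8 G93A mice (log2 fold change -7.86 ± 1.599 SE, adjusted p 0.0799 by edgeR's quasi-likelihood test). The difference rests on 3 WT mice. Pkd2l1, the channel of neurons that contact the cerebrospinal fluid, ranged from 20.4 to 33.4 CPM in WT (median 26.8) and from 13.1 to 23.6 CPM in G93A mice (median 19.2), with a log2 fold change of -0.48 ± 0.10 and an adjusted p of 0.0799 at 95 days and -0.72 ± 0.09 and 1.5e-06 at 155 days. Mpeg1, a pore-forming protein of macrophages and microglia, ranged from 21.9 to 29.3 CPM in WT and from 26.0 to 53.4 CPM in G93A mice (adjusted p 0.0962). Dhrs1, a reductase, ranged from 57.4 to 72.5 CPM in WT and from 73.2 to 118 CPM in G93A mice without overlap (adjusted p 0.0531), and its log2 fold change was 0.47 ± 0.09 at 95 and 2.47 ± 0.11 at 155 days.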
